A study of Mus musculus with 4 samples.

Results

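The D-type cyclins Ccnd1, Ccnd2 and Ccnd3, the CIP/KIP inhibitors Cdkn1a, Cdkn1b and Cdkn1c, and the INK4 inhibitors Cdkn2a, Cdkn2b and Cdkn2c were followed through aorta of mice with and without geranylgeranyl diphosphate synthase (GGPPS, gene symbol Ggps1). The 9 genes were chosen by symbol, and all 9 were found among the 24344 distinct symbols of the data. RNA came from aorta of C57BL/6 mice aged 3 weeks, with 2 wild-type libraries (WT) and 2 knockout libraries (KO). GGPPS makes the lipid geranylgeranyl diphosphate, which anchors many small GTPases in membranes. Each library is labelled as aorta of male and female mice. The cells in which Ggps1 was deleted, the deleted exons and the number of animals behind a library are not given in the sources used here.

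D-type cyclins bind and activate the kinases CDK4 and CDK6, which phosphorylate the retinoblastoma protein RB and so release E2F factors that switch on the genes of DNA synthesis. INK4 proteins block CDK4 and CDK6 directly, while CIP/KIP proteins bind cyclin-CDK complexes more widely and block CDK2 in particular. In a healthy artery smooth muscle cells are largely quiescent, and Cdkn1b is a known brake on their division after injury. Cdkn1a is the classical arrest target of p53, and Cdkn2a and Cdkn2b are widely used as marks of senescence. Cyclin D1 is known as a sensor of mitogens and adhesion. These are facts of background, not results.

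Levels are given as FPKM (fragments per kilobase of transcript, scaled to the mapped fragments of the library), a unit scaled for length, so that levels of different genes can be set side by side. Differences are log2 fold changes of FPKM + 1, KO minus WT, tested with limma over the 12314 genes that reached 1 FPKM in 2 or more of the libraries. A gene was called at a Benjamini-Hochberg adjusted p under 0.05, and adjusted p-values below are limma's. The FPKM columns summed to between 515927 and 520478 in WT and between 611767 and 632918 in KO, and the number of reads behind them is unknown. Replicates of a genotype correlated at 0.994 to 0.996 across tested genes and libraries of different genotypes at 0.884 to 0.897, values in which genes are not independent. Ggps1 stood at 8.96 and 10.6 FPKM in WT and at 1.18 and 1.07 FPKM in KO, in the direction of the labels (log2 fold change -2.34, adjusted p = 3.5e-09).

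The make-up of the tissue RNA differed between genotypes. Contractile smooth muscle markers, which define the wall of the aorta, were present in all 4 libraries, and all 15 were lower in KO, their summed level going from 23455 and 26010 FPKM to 5539 and 7349 FPKM. Macrophage markers were higher in 13 of 15 cases, with sums of 101 and 104 FPKM in WT and 586 and 502 FPKM in KO, and general leukocyte markers in 12 of 12, with sums of 18.97 and 20.3 FPKM and of 277 and 222 FPKM. Both WT libraries reached 1 FPKM for 10 of these macrophage and 5 of these leukocyte markers, so the counts lean on the filter. Of all tested genes, 35.2% were called higher and 30.6% lower. Endothelial markers were lower in 10 of 12 tested cases, with sums of 344 and 347 FPKM and of 131 and 145 FPKM. Fibroblast markers went both ways, 3 of 12 higher and 7 lower, with sums of 4786 and 4150 FPKM in WT and 4036 and 3936 FPKM in KO. Markers of T, NK and B cells summed to between 0.337 and 1.51 FPKM in each of the 4 libraries, with Ncr1 at 0 in all. Skeletal and heart muscle markers summed to 25.9 and 25.9 FPKM in WT and 73.5 and 87.1 FPKM in KO. Of those tested, Tnnt2 was higher and Ckm, Tnnt3 and Tnni3 were lower. Adipocyte markers summed to 146 and 186 FPKM in WT and 77.5 and 95.1 FPKM in KO, with Fabp4 lower and Cfd not called. In bulk tissue, fewer cells of a type and less RNA per cell cannot be told apart. The part of these cell types in the levels of the 9 cyclin and inhibitor genes was not tested.

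Of the 9 genes, 5 were called higher in KO and 3 lower, and Ccnd2 was not called. Over all tested genes 65.7% were called, 35.2% higher and 30.6% lower, so that a call on its own does not set these genes apart. When each library was scaled to an equal column total, 25.3% of genes were called higher and 45.3% lower, and the median gene moved from 0.03 to -0.20 on the log2 scale. There were 5 higher and 3 lower calls among the 9 genes there too. Libraries of the genotypes did not overlap for any of the 9 genes, against 83.1% of all tested genes. Cdkn2a passed the level filter through the KO libraries only and Cdkn2b through these and a single WT library. These 2 genes could therefore be tested only because they were high in KO. Cdkn2b, Cdkn1a and Ccnd1 ranked 85, 151 and 203 from the top of the 12314 log2 fold changes.

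**Figure D1:**
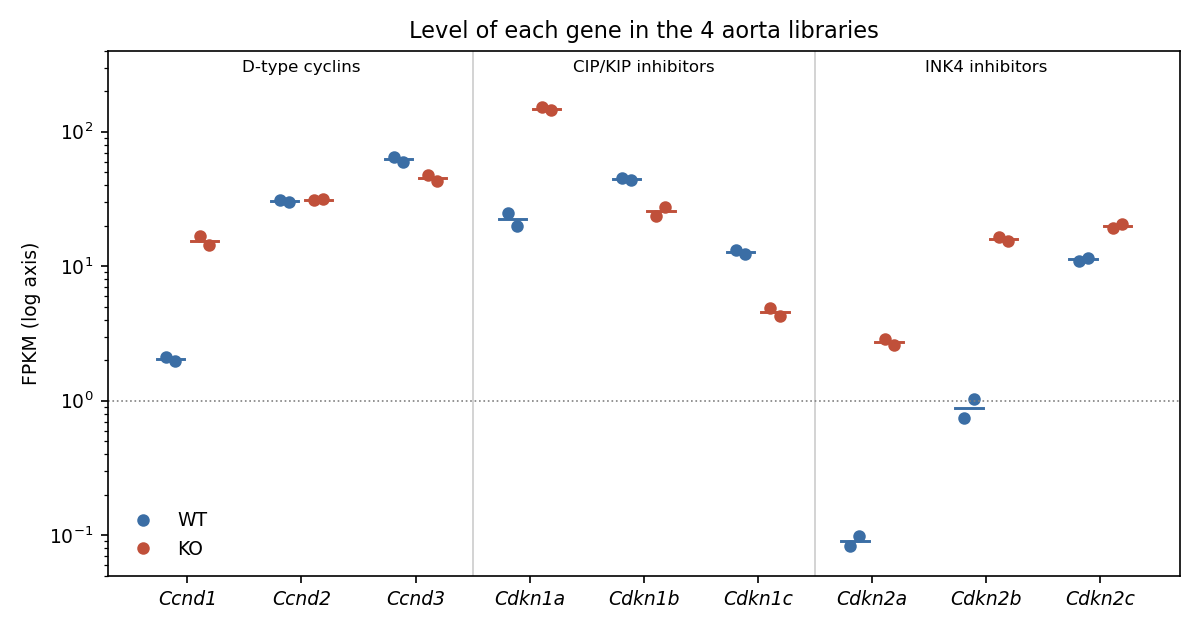
FPKM of each of the 9 genes (log axis) in the 2 WT and 2 KO libraries, 1 point per library, with a bar at the mean of each genotype and a dotted line at 1 FPKM, the level of the filter. Cdkn1a at 152 and 146 FPKM in KO stood above all others, and Cdkn2a and Cdkn2b started from about 1 FPKM or less in WT.

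Of the 3 D-type cyclins Ccnd1 rose, Ccnd3 fell and Ccnd2 was not called. Ccnd1 (chromosome 7 of mm10, 144929931 to 144939925, minus strand, with 5 exons), the mitogen-responsive cyclin, was at 2.11 and 1.98 FPKM in WT and at 16.8 and 14.3 FPKM in KO. Both KO libraries lay far above both WT libraries, and the gap between the KO libraries was small beside that between genotypes. Its mean was 7.58-fold higher in KO (log2 fold change 2.43, 95% interval 2.16 to 2.71, adjusted p = 2.1e-09). With a pseudocount of 5 the log2 fold change was 1.54 (adjusted p = 3.83e-09).

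Ccnd2 (chromosome 6, 127125162 to 127152193, minus strand) was at 30.9 and 29.9 FPKM in WT and at 31.3 and 31.3 FPKM in KO. The KO libraries were above the WT libraries only by a margin like that within WT. The log2 fold change was 0.04, with a 95% interval of -0.18 to 0.26 (adjusted p = 0.743), and it was -0.21 with equal column totals (adjusted p = 0.0622). Ccnd3 (chromosome 17, 47505051 to 47599691, plus strand), a D-type cyclin that is often high in differentiated cells, was at 65.0 and 59.6 FPKM in WT and at 47.5 and 43.3 FPKM in KO. The groups did not overlap, and the WT mean was 1.37-fold above the KO mean (log2 fold change -0.45, 95% interval -0.68 to -0.22, adjusted p = 0.00188). Without WT replicate 1 the value was -0.39 and the call was lost (adjusted p = 0.052), over a range of adjusted p from 6.5e-05 to 0.052 in the alternatives, and with equal column totals it was -0.71. Bysl, a ribosome biogenesis gene on the opposite strand that overlaps Ccnd3 by 361 bases, moved the other way, from 11.6 and 11.6 FPKM to 17.1 and 18.3 FPKM (log2 fold change 0.57, adjusted p = 0.000537).

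The sum of the D-type cyclins overlapped between the genotypes, at 98.1 and 91.5 FPKM in WT and 95.5 and 88.9 FPKM in KO. As a share of each column total it did not overlap and was lower in KO, at 0.0190% and 0.0176% in WT and 0.0156% and 0.0140% in KO. The make-up of the sum differed under either scaling. Ccnd1 supplied 2.15% and 2.17% of the sum in WT and 17.5% and 16.1% in KO. Ccnd3 supplied 66.3% and 65.1% in WT and 49.7% and 48.7% in KO, while Ccnd2 stayed at 31.5% to 35.3% in the 4 libraries. The ratio of Ccnd3 to Ccnd1, which does not depend on how a library is scaled, was 30.8 and 30.1 in WT and 2.83 and 3.03 in KO. These shares are descriptions, since 2 libraries against 2 cannot reach a two-sided exact permutation p below 0.333.

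**Figure D2:**
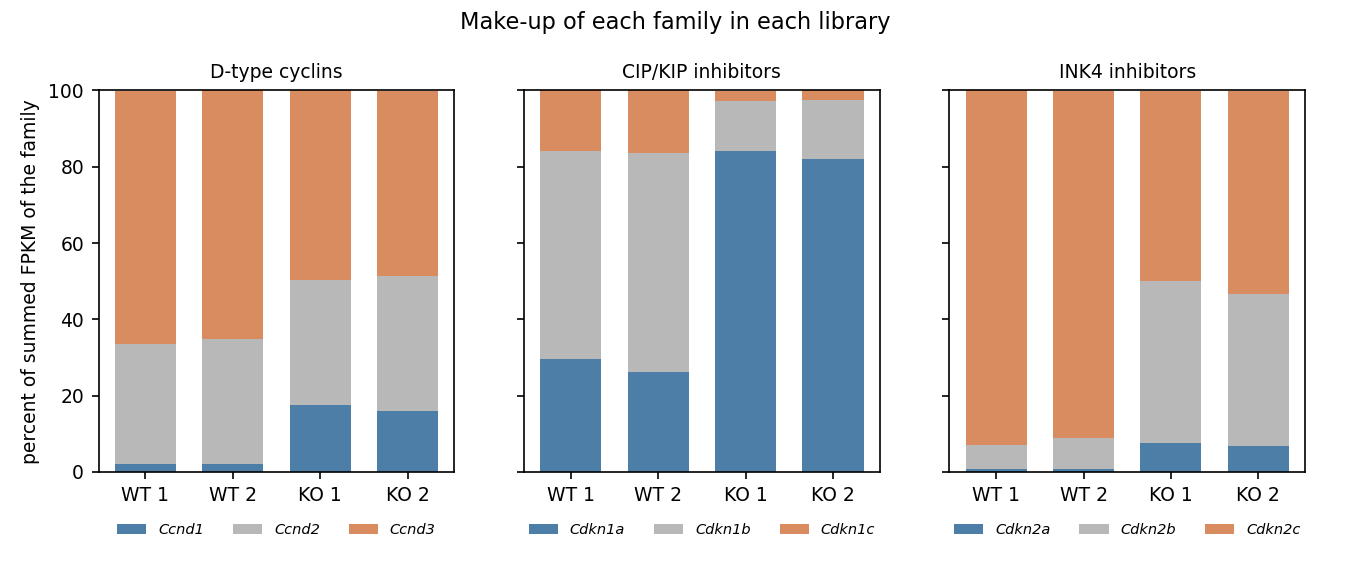
Percent of the summed FPKM of each family supplied by each of its 3 genes in the set, 1 bar per library. Ccnd1 grew from about 2.15% to between 16.1% and 17.5% of the D-type cyclins, Cdkn1a from between 26.1% and 29.7% to between 82.1% and 84.1% of the CIP/KIP genes, and Cdkn2b from between 6.32% and 8.15% to between 39.9% and 42.6% of the INK4 genes, a family drawn without Cdkn2d.

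Within the CIP/KIP family Cdkn1a rose while Cdkn1b and Cdkn1c fell. Cdkn1a (chromosome 17, 29090976 to 29100727, plus strand, with 3 exons), which encodes p21, was at 24.9 and 19.8 FPKM in WT and at 152 and 146 FPKM in KO. Both WT libraries lay far below both KO libraries. The mean was 6.66-fold higher in KO (log2 fold change 2.69, 95% interval 2.44 to 2.94, adjusted p = 3.64e-10). Cdkn1a ranked 3232 and 3919 among all rows by level in WT and 588 and 638 in KO.

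Promoter sequences of Cdkn1a are shown because this gene has a pair of start sites with unlike upstream sequence and the largest level of the set in KO. They come from RefSeq (GRCm38.p6) and run 5′ to 3′ from base 250 to base 11 before each start. The windows of 300 bases, 250 before and 50 after the start, were searched on both strands for the GC box GGGCGG, the E2F letters TTTGGCGC and TTTCCCGC, the cyclic AMP element TGACGTCA, the TATA box TATAAA, the E-box CACGTG and the p53 element. The p53 element was added after the sequences had been seen, and it is taken as 20 bases with at most 1 mismatch. Capitals mark matches.
Cdkn1a upstream start, chr17:29090729-29090968, plus strand: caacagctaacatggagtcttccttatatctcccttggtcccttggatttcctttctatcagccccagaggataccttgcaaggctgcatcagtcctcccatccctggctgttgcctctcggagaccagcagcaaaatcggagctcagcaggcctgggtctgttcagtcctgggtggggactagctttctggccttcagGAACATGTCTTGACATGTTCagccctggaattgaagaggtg
Cdkn1a downstream start, chr17:29093519-29093758, plus strand: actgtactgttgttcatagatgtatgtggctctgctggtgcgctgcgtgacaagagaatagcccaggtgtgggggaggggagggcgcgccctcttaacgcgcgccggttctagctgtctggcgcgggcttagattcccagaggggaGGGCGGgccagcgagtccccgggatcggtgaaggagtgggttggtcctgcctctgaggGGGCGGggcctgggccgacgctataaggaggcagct

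The upstream window held 1 match to the p53 element, beginning 51 bases before the start, and the downstream window held 2 GC boxes. Of 32851 promoter windows in the table, 0.0883% held the p53 element and 35.7% a GC box. A match describes the letters and is not evidence of binding. The FPKM values are per gene and do not tell transcripts from the start sites apart.

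Cdkn1b (chromosome 6, 134920401 to 134925513, plus strand), which encodes the quiescence inhibitor p27, was at 45.6 and 43.7 FPKM in WT and at 23.7 and 27.5 FPKM in KO. It was the most abundant inhibitor of the set in both WT libraries, and its KO libraries lay clearly lower. The WT mean was 1.75-fold above KO (log2 fold change -0.78, 95% interval -1.02 to -0.55, adjusted p = 2.9e-05). Cdkn1c (chromosome 7, 143458339 to 143461050, minus strand), the imprinted gene of p57, was at 13.3 and 12.4 FPKM in WT and at 4.89 and 4.30 FPKM in KO. Here too the groups lay well apart, and the WT mean was 2.80-fold above KO (log2 fold change -1.31, 95% interval -1.57 to -1.04, adjusted p = 6.12e-07). The ratio of Cdkn1a to Cdkn1b was 0.546 and 0.452 in WT and 6.40 and 5.32 in KO, so that the order of these inhibitors was turned round in each KO library.

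All 3 INK4 genes of the set rose. Cdkn2b (chromosome 4, 89306299 to 89311039, minus strand, 2 exons), which encodes p15 and is a known target of TGF-beta signalling, was at 0.745 and 1.03 FPKM in WT and at 16.4 and 15.3 FPKM in KO. Its rise of 3.16 on the log2 scale of FPKM + 1 was the largest of the set (95% interval 2.88 to 3.44, adjusted p = 2.12e-10), a 17.8-fold ratio of means. Cdkn2a (chromosome 4, 89274471 to 89294653, minus strand) was at 0.0831 and 0.0985 FPKM in WT and at 2.87 and 2.61 FPKM in KO. Cdkn2a remained the least abundant of the 9 genes in KO, although its ratio of means, 30.2-fold, was the highest. The log2 fold change was 1.78 (95% interval 1.52 to 2.04, adjusted p = 2.58e-08), and the added 1 FPKM holds such a low gene down. With pseudocounts of 5 and 0.1 the values were 0.60 and 3.90 for Cdkn2a (adjusted p = 7.03e-08 and 2.02e-07) and 1.82 and 4.03 for Cdkn2b (3.35e-10 and 7.37e-09). With the pseudocount of 5 the value of Cdkn1a was above that of Cdkn2b.

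Cdkn2c (chromosome 4, 109660876 to 109667189, minus strand), which encodes p18, was the most abundant of the 3 INK4 genes of the set in both genotypes. It was at 11.0 and 11.5 FPKM in WT and at 19.2 and 20.4 FPKM in KO. The groups did not overlap, with a 1.76-fold higher mean in KO (log2 fold change 0.76, 95% interval 0.52 to 1.01, adjusted p = 4.39e-05). Cdkn2c supplied 93.0% and 91.1% of the summed FPKM of these 3 genes in WT and 49.9% and 53.3% in KO, and Cdkn2b supplied most of the remainder in KO. Cdkn2d, the INK4 gene outside the set, was more abundant than Cdkn2c in each library, at 20.9 and 17.3 FPKM in WT and 24.8 and 22.5 FPKM in KO (log2 fold change 0.30, adjusted p = 0.044). With Cdkn2d in the sum, Cdkn2c supplied 33.5% and 38.5% in WT and 30.3% and 33.6% in KO, overlapping between genotypes, while Cdkn2b supplied 2.28% and 3.44% in WT and 25.9% and 25.1% in KO. The Cdkn2d call ended in 8 of 13 alternatives, over adjusted p-values from 0.0343 to 0.743, among them equal column totals (0.05, adjusted p = 0.743), without WT replicate 2 (0.17, adjusted p = 0.469), without KO replicate 1 (0.23, adjusted p = 0.18) and without KO replicate 2 (0.37, adjusted p = 0.0553).

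Cdkn2a and Cdkn2b are neighbours, with 11.6 kilobases between the gene bodies. Cdkn2a has a pair of annotated transcripts with separate promoters: the downstream start gives the CDK4 and CDK6 inhibitor p16Ink4a and the upstream start gives p19Arf, which stabilises p53. The transcripts share 575 exonic bases, 67.5% of one and 64.2% of the other, and 0 bases of the first exons, so a value per gene cannot tell p16Ink4a from p19Arf. The 3 promoters of this locus are shown from base 250 to base 11 before each RefSeq start, because both genes rose here. Which Cdkn2a start gave the rise is not known from these values.
Cdkn2b, chr4:89311043-89311282, minus strand: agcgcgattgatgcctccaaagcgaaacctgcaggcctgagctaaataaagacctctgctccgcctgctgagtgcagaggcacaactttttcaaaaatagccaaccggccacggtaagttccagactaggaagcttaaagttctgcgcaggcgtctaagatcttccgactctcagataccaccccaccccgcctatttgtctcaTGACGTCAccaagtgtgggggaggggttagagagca
Cdkn2a upstream start (p19Arf), chr4:89294630-89294869, minus strand: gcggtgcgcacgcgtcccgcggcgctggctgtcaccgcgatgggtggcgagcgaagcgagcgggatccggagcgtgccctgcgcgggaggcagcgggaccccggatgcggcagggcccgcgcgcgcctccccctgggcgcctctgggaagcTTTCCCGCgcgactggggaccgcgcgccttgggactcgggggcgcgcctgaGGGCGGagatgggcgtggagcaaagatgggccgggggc
Cdkn2a downstream start (p16Ink4a), chr4:89282203-89282442, minus strand: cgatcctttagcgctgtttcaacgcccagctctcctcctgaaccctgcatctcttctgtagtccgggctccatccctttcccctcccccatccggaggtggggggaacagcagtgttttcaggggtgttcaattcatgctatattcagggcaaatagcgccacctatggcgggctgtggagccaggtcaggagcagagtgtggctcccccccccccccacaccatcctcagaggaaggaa

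The Cdkn2b window held 1 cyclic AMP element, a motif found in 1.79% of all windows, and 1 GC box outside the stretch printed. The p19Arf window held 1 E2F match, found in 1.56% of windows, and 3 GC boxes, 1 of them in the stretch printed. The p16Ink4a window held 1 GC box, outside the stretch printed, and none of the other motifs. The GC content of the 300-base windows was 57.7%, 77.0% and 60.3% in that order. Promoter entries were present for 6 of the 9 genes, and Ccnd1, Ccnd2 and Cdkn1c are named only.

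**Figure D3:**
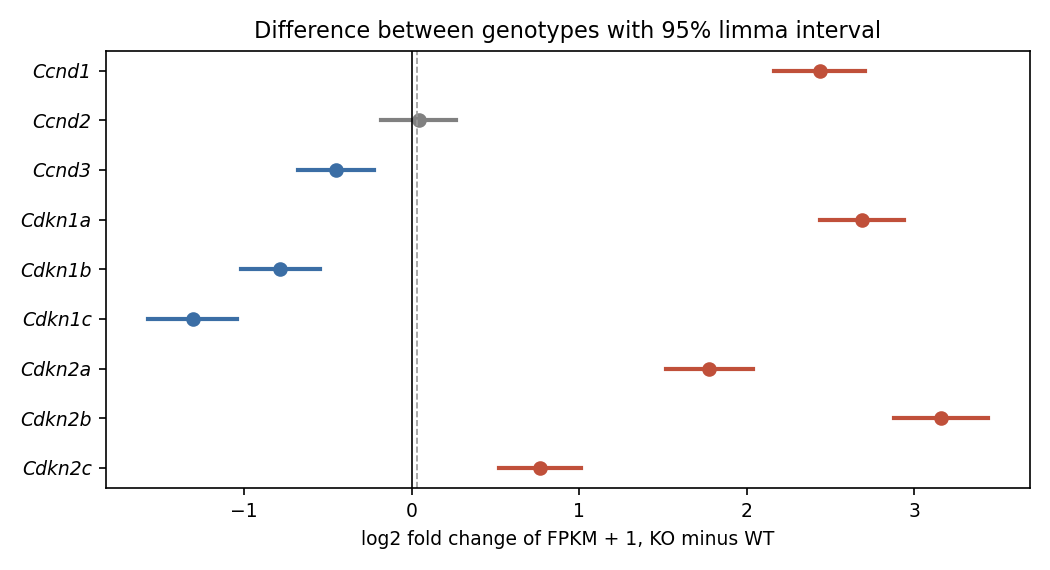
Log2 fold change of FPKM + 1, KO minus WT, for each of the 9 genes, as a point with its 95% limma interval. Red points were called higher, blue lower and the grey point (Ccnd2) was not called, and the dashed line at 0.03 is the median of all 12314 tested genes.

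The balance of inhibitors to cyclins shifted with Cdkn1a. The 6 inhibitors summed to 95.6 and 88.5 FPKM in WT and to 219 and 216 FPKM in KO, and the ratio of this sum to that of the D-type cyclins was 0.975 and 0.967 in WT and 2.29 and 2.43 in KO. Without Cdkn1a the ratio was 0.721 and 0.751 in WT and 0.702 and 0.789 in KO, with overlapping groups. The 3 INK4 genes of the set stood at 0.120 and 0.138 of the D-type cyclins in WT and at 0.403 and 0.431 in KO. With Cdkn2d added, the INK4 ratio was 0.334 and 0.327 in WT and 0.663 and 0.685 in KO, a smaller shift. The ratio of all these inhibitors without Cdkn1a was then 0.935 and 0.940 in WT and 0.962 and 1.04 in KO, with no overlap. By level the order in WT was Ccnd3, Cdkn1b, Ccnd2, Cdkn1a, Cdkn1c, Cdkn2c, Ccnd1, Cdkn2b and Cdkn2a, and neighbouring genes did not overlap between the 2 libraries. In KO it was Cdkn1a, Ccnd3, Ccnd2, Cdkn1b, Cdkn2c, Cdkn2b, Ccnd1, Cdkn1c and Cdkn2a, where only Cdkn2b and Ccnd1 overlapped.

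The kinases, the E and A cyclins and the RB-E2F genes that act with these proteins were mixed. The group also held the INK4 gene Cdkn2d, one of its higher calls, which ended in 8 of 13 alternatives. Of 28 tested genes in this group 15 were higher and 4 lower, against 35.2% and 30.6% of all genes. Both WT libraries reached 1 FPKM for 24 of them, so the count of higher calls leans on the filter. The median log2 fold change was 0.30 beside 0.03 over all genes, and with equal column totals it was 0.05 with 10 lower. Cdk4, the partner of D-type cyclins, rose from 57.2 and 52.0 FPKM in WT to 135 and 125 FPKM in KO (log2 fold change 1.24, adjusted p = 1.63e-07). Cdk6 was at 3.61 and 2.35 FPKM in WT and 2.62 and 2.31 FPKM in KO and was not called (adjusted p = 0.305, and 0.0467 to 0.846 over the alternatives). The sum of the D-type cyclins over the sum of Cdk4 and Cdk6 was 1.61 and 1.68 in WT and 0.695 and 0.697 in KO, both KO libraries lying below both WT libraries. Cdk2, the target of CIP/KIP proteins, was at 13.8 and 10.4 FPKM in WT and 10.4 and 11.5 FPKM in KO (adjusted p = 0.448). With equal column totals Cdk6 and Cdk2 were called lower (-0.37 and -0.36, adjusted p = 0.0467 and 0.0264).

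Downstream of these kinases, Ccna2, the cyclin of S phase, rose from 2.51 and 1.78 FPKM to 13.4 and 14.4 FPKM (log2 fold change 2.25, adjusted p = 9.58e-09). E2f1, the activating E2F factor, rose by 1.76 and Ccne1, the cyclin that drives CDK2 into S phase, by 1.19 on the log2 scale. With pseudocounts of 5 and 0.1 the Ccne1 value was 0.46 and 1.95, and Ccne1 was not tested under the filter of 5 FPKM. Those that fell, named after their values were seen, were Rbl2, Tfdp2, Lin52 and Rb1. Rbl2, which encodes the RB relative p130 of quiescent cells, went from 11.0 and 12.4 FPKM to 4.07 and 5.61 FPKM. Rb1 went from 5.57 and 6.38 FPKM to 3.15 and 4.48 FPKM (log2 fold change -0.55, adjusted p = 0.00498). Without KO replicate 1 the Rb1 value was -0.34 and the call was lost (adjusted p = 0.0595, the highest in a range from 0.000351).

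Genes of DNA replication and of mitosis rose beside the inhibitors. Of 29 tested replication and S phase genes 27 were higher and 0 lower (median 1.10), and of 34 tested mitosis genes 32 were higher and 0 lower (median 1.88), where 35.2% of all genes were called higher. Both WT libraries reached 1 FPKM for 24 and for 14 of them, and the remaining genes needed a KO library to enter the test, so these counts lean on the filter. With equal column totals 1 replication gene was called lower. With pseudocounts of 5 and 0.1 the medians were 0.66 and 1.48 for replication and 0.85 and 2.65 for mitosis. Mki67, the proliferation marker, was at 1.01 and 0.648 FPKM in WT and 4.94 and 6.19 FPKM in KO. Pcna, the sliding clamp of DNA polymerase to which p21 also binds, rose from 57.6 and 56.7 FPKM to 119 and 129 FPKM (log2 fold change 1.10, adjusted p = 3.84e-07). Gins2, Tk1 and Uhrf1 rose by 1.97, 2.13 and 2.19 on the log2 scale, and Ccnb1 and Birc5 by 2.64 and 2.74.

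Many arrest-linked genes rose in the same libraries. Of 26 tested p53 target genes, a list that leaves out Cdkn1a, 16 were higher and 8 lower (median 0.84), where 35.2% of all genes were higher and 30.6% lower. Both WT libraries reached 1 FPKM for 24 of them. Eda2r and Ckap2, both called higher, passed the filter through the KO libraries only. Trp53, the gene of p53 itself, was at 20.7 and 18.8 FPKM in WT and 51.3 and 46.4 FPKM in KO (log2 fold change 1.26, adjusted p = 3.01e-07). Mdm2, a target that also degrades p53, rose from 15.4 and 16.1 FPKM to 26.8 and 33.4 FPKM (log2 fold change 0.89, adjusted p = 2.45e-05). Gdf15, Gadd45a and Plk2 led the list with log2 fold changes of 6.55, 4.02 and 3.21, and Bax, the pro-apoptotic BCL2 relative, went from 125 and 124 FPKM to 444 and 417 FPKM. Among the 8 that fell, named after their values were seen, were Sesn1 at -1.44, Trp53inp1 at -1.54 and Fas at -1.04 on the log2 scale. Without WT replicate 1 only 4 of the list were called lower.

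Of the secreted genes associated with senescence 27 of 34 tested were higher and 3 lower (median 1.88, against 35.2% and 30.6% of all genes called), the 3 being Igfbp6, Mmp9 and Igfbp4. The WT mean was 1 FPKM or more for 24 of these 34 genes, so this count leans on the filter too. The median was 0.99 and 2.36 with pseudocounts of 5 and 0.1. The list held 42 genes, and Il6, Il1a, Il1b, Ccl20, Mmp10, Mmp13, Areg and Csf2 missed the filter and were not tested. Spp1, Timp1, Gdf15 and Cxcl10 had the smallest p-values, and Cxcl10 was listed at 0 and 0.103 FPKM in WT and at 36.0 and 37.3 FPKM in KO. Gdf15 is also in the p53 target list, so the lists are not separate there. Ccna2, Gadd45a, Btg2 and Trp53 are likewise shared between lists used here. Macrophage and leukocyte markers rose in the same KO libraries, and their part in these secreted genes was not tested. Cellular genes tied to senescence were mixed, with 7 of 23 higher and 5 lower, both below the shares of all genes, and with 9 lower under equal column totals. Lmnb1, lamin B1, whose loss is a known mark of senescent cells, went up from 4.54 and 3.29 FPKM to 12.4 and 12.6 FPKM (log2 fold change 1.47, adjusted p = 6.23e-07). Hmgb2, another gene known to be lost in senescence, rose by 1.71, while Id2 and Id3, inhibitors of basic helix-loop-helix factors, fell by 2.68 and 1.69 on the log2 scale. Bhlhe40 rose from 7.68 and 8.92 FPKM to 26.3 and 31.9 FPKM (log2 fold change 1.69, adjusted p = 7.52e-08). Cebpb, named after its values were seen, rose by 1.06.

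**Figure D4:**
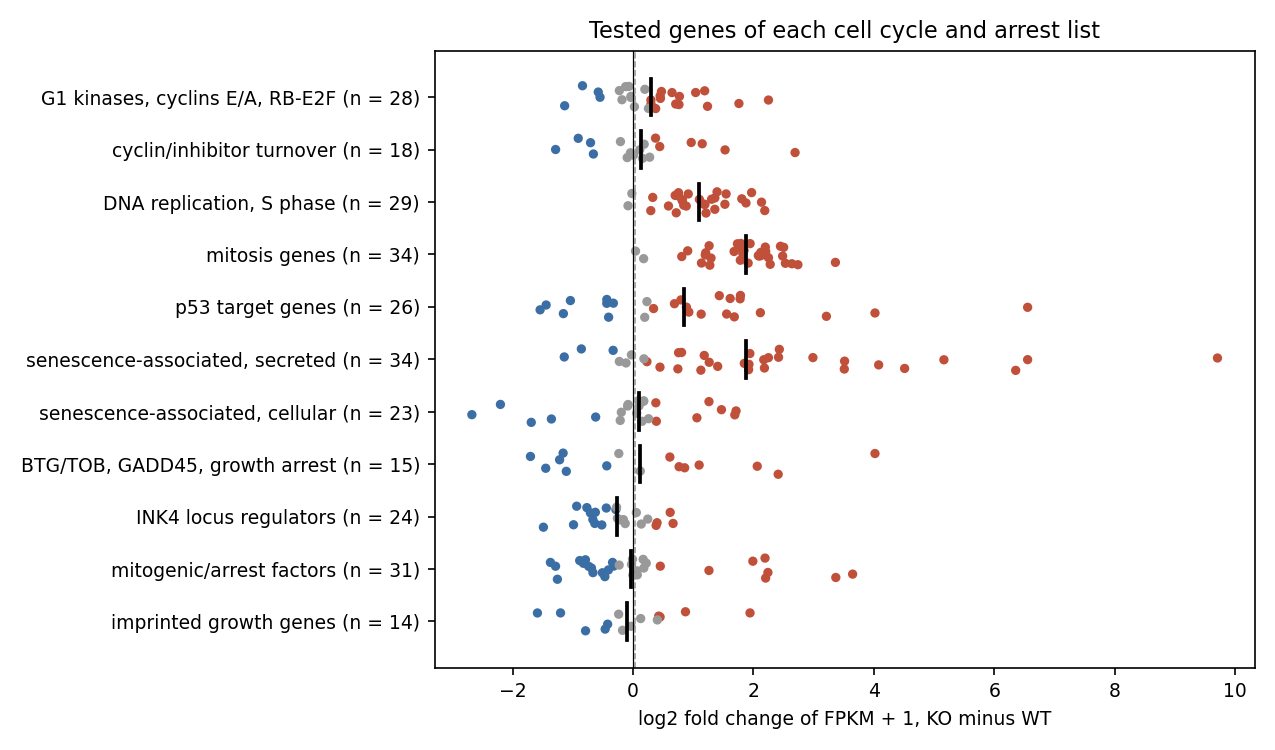
Log2 fold change of FPKM + 1, KO minus WT, of every tested gene in 11 lists, 1 point per gene, red if called higher, blue if called lower and grey if not called, with a black bar at the list's median and a dashed line at the median of all tested genes. Replication, mitosis and secreted senescence-associated genes have medians of 1.10, 1.88 and 1.88, and the INK4 locus regulators one of -0.27.

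Regulators of the INK4 locus were lower in 11 and higher in 4 of 24 tested cases (median -0.27), where 30.6% of all genes were lower. Most are polycomb group genes, which hold Cdkn2a and Cdkn2b silent in young tissue. Others, such as Kdm6b and Kmt2a, are not repressors of the locus, so the count does not measure repression. With equal column totals 17 were lower and the median was -0.50, where 45.3% of all genes were lower and their median was -0.20. Cbx7, a polycomb reader known to repress this locus, was at 15.6 and 17.0 FPKM in WT and at 5.55 and 4.80 FPKM in KO (log2 fold change -1.49, adjusted p = 1.8e-07). Jarid2, Tbx2 and Cbx6 fell by 0.99, 0.94 and 0.71 on the log2 scale. Named after their values were seen, Kdm6b and Kmt2a fell by 0.67 and 0.62, and Phc2, Cbx2 and Zfp277 rose by 0.62, 0.40 and 0.38. Ezh2, the histone methyltransferase of the complex, rose from 3.52 and 3.31 FPKM to 5.66 and 6.35 FPKM (log2 fold change 0.67, adjusted p = 0.00034). Bmi1, a polycomb repressor of Cdkn2a, was at 12.7 and 11.2 FPKM in WT and 12.3 and 14.2 FPKM in KO and was not called (log2 fold change 0.14, adjusted p = 0.338).

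Transcription factors that drive or brake division were called higher in 8 and lower in 14 of 31 cases (median -0.02), against 35.2% and 30.6% of all genes. Myc, which induces D-type cyclins and represses Cdkn1a and Cdkn2b, was at 1.29 and 1.89 FPKM in WT and 24.3 and 26.9 FPKM in KO (log2 fold change 3.37, adjusted p = 2.07e-10). Fosl1, an AP-1 subunit, was at 0.0199 and 0.101 FPKM in WT and 13.3 and 11.3 FPKM in KO. Junb and Runx1 rose by 1.99 and 2.20 on the log2 scale. With pseudocounts of 5 and 0.1 the Runx1 value was 0.87 and 3.94. Foxo3, a factor that induces Cdkn1b in quiescent cells, went from 22.6 and 23.7 FPKM to 7.88 and 8.82 FPKM (log2 fold change -1.37, adjusted p = 2.2e-07). This gene was chosen after its values were seen.

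Genes that control the turnover of these proteins were higher in 6 and lower in 4 of 18 tested cases, near or below the 35.2% and 30.6% of all genes, with a median of 0.14, and -0.08 under equal column totals. Skp2, which marks p27 for degradation, was at 2.02 and 2.00 FPKM in WT and 2.68 and 2.61 FPKM in KO and was not called (log2 fold change 0.28, adjusted p = 0.0584, over a range of 0.0417 to 0.482 in the alternatives). Its cofactor Cks1b rose from 19.6 and 18.0 FPKM to 42.3 and 43.6 FPKM (log2 fold change 1.15, adjusted p = 5.67e-07). Cks2 and Cdc34, the ubiquitin-conjugating partner, rose by 2.69 and 1.53 on the log2 scale. Fbxo31, an F-box protein that targets cyclin D1, went from 45.5 and 52.3 FPKM to 19.5 and 19.3 FPKM (log2 fold change -1.28, adjusted p = 2.59e-07). Ambra1, which takes D-type cyclins to degradation, went from 16.5 and 16.2 FPKM to 9.82 and 10.2 FPKM, and was chosen after its values were seen. Also named after their values were seen, Rnf123 and Usp2 fell by 0.91 and 0.70 on the log2 scale. The other genes called, Dtl, Ddb1 and Fbxo4, rose by 0.97, 0.44 and 0.38. Dtl passed the level filter through the KO libraries only.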

How the data were processed

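Per the labels' protocols, polyadenylated RNA from aorta was made into Illumina libraries. The authors deposited FPKM for each library, a unit that the file headers misspell. DESeq2 1.16.1, featureCounts 1.5.0-p3, HISAT2 2.0.5 and the build mm10 stand in the submitters' processing notes, with no role or order. The program behind the FPKM and any use of strand are not given in the sources used here, and 5 of the 9 genes overlap a gene on the opposite strand. No common step was found in low values, so read counts were not recovered and no count model was used. An intensity-trend fit in limma 3.58.1 (R 4.3.3) was run on log2(FPKM + 1) for genes that reached 1 FPKM in 2 or more libraries. The code was tried on simulated libraries with independent noise and few changed genes, all at 5 FPKM or more in WT. That setting differs from these data, so the trial does not vouch for the p-values here. Each test had 13.4 degrees of freedom, 2 of them residual and the others borrowed from the trend over genes. Nothing says that libraries shared no animals, so the spread that p-values measure may be technical. Groups came from the genotype label. Gene positions are from GENCODE M21 (mm10). The 9 genes and all lists were chosen with earlier results of these data known. Named from each list were up to 4 genes with the smallest p, genes set by name (such as Mki67, Trp53 and Myc), and the exceptions stated in the text. Alternatives changed the pseudocount, filter, scaling, variance model and libraries used. A gene set by name is not reported here.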

Additional observations from a re-analysis of the deposited data

How the results depend on the processing

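The calls of 8 of the 9 genes held in each of the alternatives in which the gene was tested: pseudocounts of 0.1 and 5, no filter and a filter of 5 FPKM, 3 other scalings, robust estimation, no intensity trend and each library left out. The exception was Ccnd3, not called without WT replicate 1. Cdkn2a was not tested under the filter of 5 FPKM. Of 56 other genes set by name or named for a smallest p, 51 kept their call in every alternative run. The 5 that did not were Cdk6, Cdk2, Rb1, Cdkn2d and Skp2. When a library was left out, its lone partner was assumed to vary like the other group. No paired analysis was possible because the genotypes share no replicate number in the labels. Depth is unknown, so precision rests on 2 libraries per genotype.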

Other observations

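Cdkn1c is imprinted, and other imprinted growth genes were called lower in 5 and higher in 4 of 14 tested cases (median -0.10), near the 30.6% and 35.2% of all genes. Igf2, a fetal growth factor, was at 10.4 and 9.92 FPKM in WT and at 2.64 and 2.79 FPKM in KO (log2 fold change -1.59, limma adjusted p = 8.37e-08). Peg3 fell from 10.1 and 11.6 FPKM to 3.53 and 4.81 FPKM, and Igf2r, the receptor that clears Igf2, rose by 0.87 on the log2 scale. Near Cdkn1c on chromosome 7, Slc22a18 was at 0.236 and 0.230 FPKM in WT and at 4.51 and 3.09 FPKM in KO, while Phlda2 stayed under 0.175 FPKM and Kcnq1ot1, the noncoding RNA that silences the cluster on the paternal copy, under 0.16 FPKM in each library.

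Antiproliferative genes outside the CDK inhibitor families were called in both directions, with 7 higher and 6 lower of 15 tested, where 35.2% of all genes were higher and 30.6% lower. Gadd45a, named above among the p53 targets, rose from 4.14 and 5.08 FPKM to 82.8 and 97.0 FPKM. Klf4, a factor that induces Cdkn1a, rose from 12.5 and 14.2 FPKM to 55.5 and 62.4 FPKM. Tob2 and Gas1, the latter a gene of growth-arrested cells, fell by 1.70 and 1.45 on the log2 scale.

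Among 8511 other genes whose mean reached 5 FPKM, those with centred log2(FPKM + 1) profiles nearest to Ccnd1 over the 4 libraries were Cd14, Psmb8 and C1qa, at root mean square distances of 0.049, 0.059 and 0.062 log2 units. Nearest to Cdkn1a were Angptl6, Ccnb1 and Gclm (0.046 to 0.053), and nearest to Cdkn2b were Ccdc109b, Cdsn and Lcp1 (0.034 to 0.065). Of these, Cd14 and C1qa are in the macrophage list used here, Lcp1 in the general leukocyte list and Ccnb1 in the mitosis list. Cdkn1b was nearest to Dirc2, Gnb4 and Ago1 (0.0081 to 0.013). Among 8512 other genes, Cdkn2a was nearest to Bax, Cmtm3 and Ly6e (0.0095 to 0.037), and Bax is in the p53 target list. Cdkn2c was nearest to Usmg5, Plat and Adprhl2 (0.014 to 0.015), and Plat is in the list of secreted senescence-associated genes. The nearest genes to Ccnd2, Ccnd3 and Cdkn1c were Mpi, Lzts2 and Adamtsl4. With 4 libraries in 2 genotypes this likeness mainly records that the genes differ between genotypes by a like amount.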
